A study of Mus musculus with 6 samples.

Results

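Ribosomal proteins of the cytosol were followed in newborn mouse lens, as 48 genes taken from 12393 genes with a probe set of their own. A gene was included if its symbol starts with Rpl or Rps and a digit, or is Rpsa, Rplp0, Rplp1 or Rplp2, and if at least 1 probe set was annotated to that gene alone. Ribosomal S6 kinases and pseudogenes were left out, and the brightest probe set over all samples stood for each gene. The 48 genes comprised 26 of the large (60S) and 22 of the small (40S) subunit. Of these, 42 encode standard proteins of the ribosome, and 6 (Rpl3l, Rpl7l1, Rpl22l1, Rpl39l, Rps27l and Rps4l) are paralogs or near relatives of such genes. A further 30 ribosomal protein symbols were found only on probe sets shared with other genes or pseudogenes, so that no value is given for them by name.

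The arrays compared 3 wild type mice of the NMRI background with 3 Pax6 heterozygous mice (Pax6 lacZ/+) taken at postnatal day 1, and each sample pooled the 2 lenses of a mouse. In the heterozygotes a lacZ insertion replaces the function of 1 copy of Pax6, which encodes a DNA-binding regulator of eye formation, in all tissues of the animal. Such lenses are smaller than normal and may keep a stalk to the cornea. The question addressed here was whether ribosomal protein RNAs differ between these genotypes. A fall in RNA per cell and a fall in the number of cells cannot be told apart in whole lenses.

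Ribosomes translate mRNA into protein, and each holds a single copy of most of its proteins. The small subunit reads the mRNA, whereas the large subunit joins the amino acids. Many mRNAs of ribosomal proteins begin with a run of pyrimidines (C and T in the DNA), the terminal oligopyrimidine tract, through which mTOR and Larp1 control their translation. In the lens, epithelial cells divide and fiber cells make crystallins in very large amounts before they lose their nuclei and organelles, ribosomes included.

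Runs of pyrimidines were found near the annotated starts of most of these genes. Promoter sequences of RefSeq (build GRCm38.p6), 250 bases before to 50 after an annotated start, were matched for 42 of the 48 genes, and 7 of these genes had several starts. The 6 sequences here are 30 bases each on the strand of the gene, with the longest run of C and T near the start in capitals. They are shown because Rpl19, Rplp0 and Rps18 varied most between samples among the brightly measured genes, whereas Rpl7a, Rpl13a and Rps26 varied least. This ranking rests on the brightest probe set of each gene.
Rpl19 (chr11:98026944-98026973, plus strand): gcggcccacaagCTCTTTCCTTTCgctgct
Rplp0 (chr5:115559466-115559495, plus strand): aggaccgcctggTTCTCCTataaaaggcac
Rps18 (chr17:33955648-33955677, minus strand): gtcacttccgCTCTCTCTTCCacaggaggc
Rpl7a (chr2:26910788-26910817, plus strand): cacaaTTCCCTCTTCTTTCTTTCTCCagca
Rpl13a (chr7:45128722-45128751, minus strand): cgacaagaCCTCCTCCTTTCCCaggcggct
Rps26 (chr10:128626485-128626514, minus strand): aagccgccggaTCCTCTTTCgagtcttggc

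The longest runs in these 6 windows held 12 bases in Rpl19, 7 in Rplp0, 11 in Rps18, 21 in Rpl7a, 14 in Rpl13a and 9 in Rps26. Rpl19 has another annotated start, near which the longest run held 5 bases. In the 100 bases centred on the start, 35 of the 42 genes (83.3%) had a run of at least 8 C or T on the strand of the gene. This was found in 39.3% of 27025 genes of the promoter table, in 38.2% of 9887 genes on the array, and in 32.3% of 65 mitochondrial ribosomal protein genes. The median longest run was 10 bases in the ribosomal protein genes and 7 in all genes.

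Other short motifs were counted in the whole window of 300 bases on both strands. CGGAAG, the core that Ets factors such as GABP bind, was present in 29 of 42 genes (69.0%), against 18.8% of all genes, 29.2% of array genes and 56.9% of mitochondrial ribosomal protein genes. CTTTCC, which can lie within a pyrimidine run, was present in 22 genes (52.4%) against 29.3% of all genes and 30.8% of mitochondrial ribosomal protein genes, and on the strand of the gene in 17 (40.5%) against 16.9% of array genes. CCATNTT, the core bound by YY1, was present in 13 (31.0%) against 18.2% of all genes and 33.8% of mitochondrial ribosomal protein genes. These are matches of letters and were not tested for binding.

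The arrays gave strong signals for most of the family. Signals are RMA intensities on the linear scale, and since probes differ in how well they bind, signals of different genes are not compared as amounts of RNA. The geometric mean of the 6 samples was at least 1000 in 37 genes (called bright below), and 36 genes lay at or above the 95th percentile of all 22626 probe sets. The 48 probe sets together held 3.29% to 3.87% of the summed signal of an array in wild type and 3.37% to 3.89% in heterozygotes, and these ranges overlapped. Between 50 and 1000 were 5 genes (Rpl14, Rps25, Rps6, Rpl7l1 and Rps4l). Another 6 genes (Rpl12, Rps27, Rpl39, Rpl39l, Rpl37 and Rpl3l) were under 50, and 4 of these 6 were also found on probe sets shared with other genes. In 12 of the 48 genes the brightest probe set had a name ending in _x_at or _s_at. Among these, the brightest probe set with another ending had a mean of 43.7 in Rpl41 and 84.9 in Rps20. In Rpl35 and Rpl13a it was 6106 and 4274. Whether the bright values include signal of related genes or pseudogenes was not tested. The array medians of 33 olfactory receptor probe sets, a guide to background, were 9.65 to 11.0. Of 14 listed lens markers 11 were measured, with a median of 13162 and 8 at 1000 or more, as the labelled tissue would give.

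**Figure D1:**
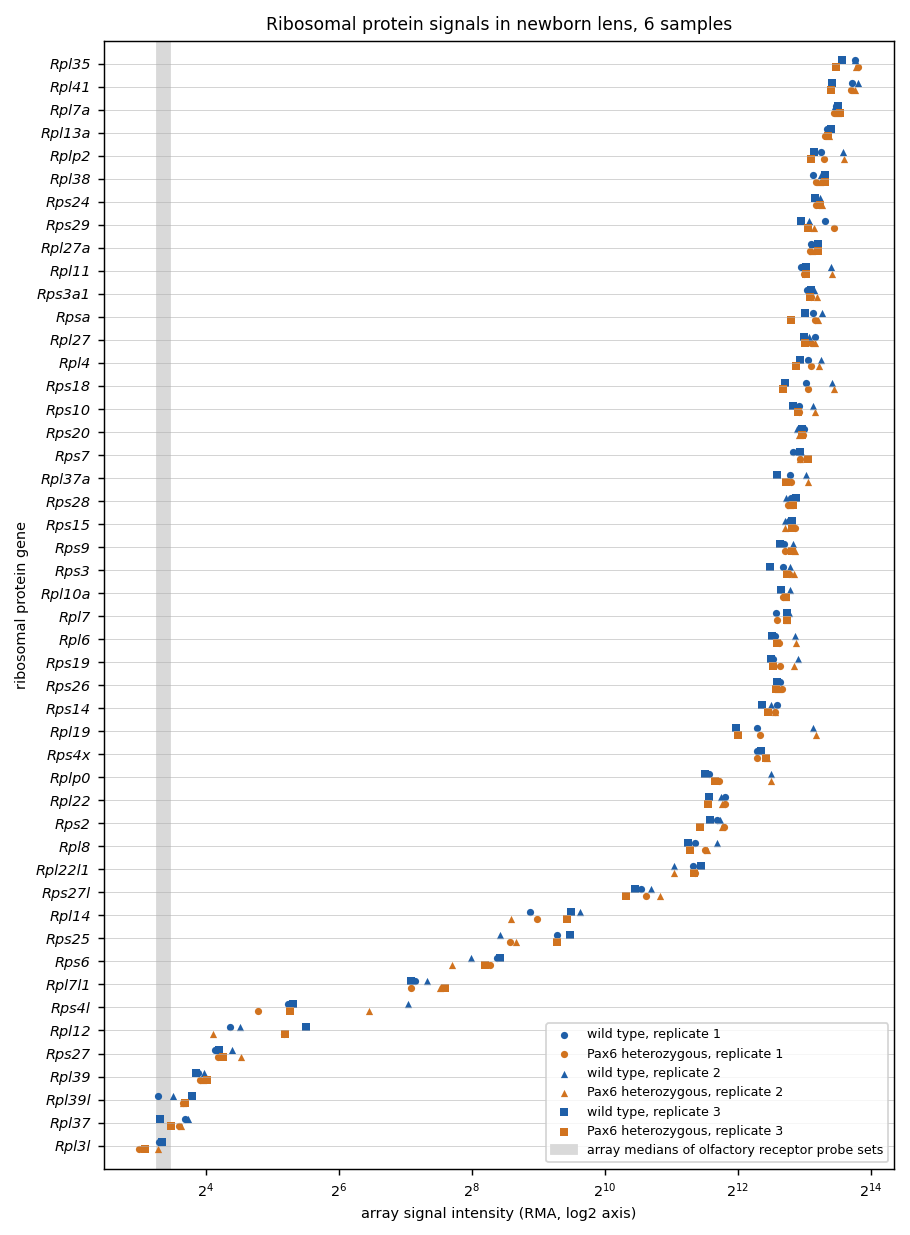
Array signal (RMA intensity, log2 axis) of the 48 ribosomal protein genes in each of 3 wild type (blue) and 3 Pax6 heterozygous (orange) samples, with a shape for each replicate number and a grey band for the array medians of olfactory receptor probe sets. The 37 genes with a mean of at least 1000 lie to the right, and blue and orange points of the same shape lie close together in most of them.

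Pax6 itself had signals of 1169, 1760 and 963 in wild type and 942, 1170 and 882 in heterozygous samples. Its values were lower in the heterozygote in each same-numbered pair, whereas the groups overlapped. The log2 difference was −0.34 ± 0.24 (standard error, n = 3 mice each, limma adjusted p = 1.00). With the replicate number as a block in the limma fit, the unadjusted p was 0.0315 and the adjusted p was 0.509. In that fit 4.59% of all probe sets were lower at an unadjusted p under 0.05. Pax6 had 5 probe sets, and the mean over them gave a difference of −0.29. The paper reports reduced Pax6 transcripts in heterozygous lenses, both on the arrays and by quantitative RT-PCR.

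No ribosomal protein gene differed between the genotypes by the test across all probe sets. With limma, 0 of 48 genes had an adjusted p under 0.05, where 0 of 22626 probe sets (0%) did. At an unadjusted p under 0.05 there were 0 genes higher and 0 lower, against 0.977% and 1.01% of all probe sets. The methods' t-test also called none after the adjustment made here. The paper names no adjustment for that test and used a looser threshold beside template matching, so its own cut is not the one applied here. The log2 differences, heterozygote minus wild type, had a median of 0.01 and a range from −0.35 to 0.22, and all probe sets had a median of −0.01. Differences were above 0 in 29 genes and below 0 in 19.

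The 37 bright genes lay close to equality. Their differences ran from −0.08 (Rpsa) to 0.13 (Rps3), a change of at most 1.10-fold, and 29 of them were within 0.05 of 0. The median absolute difference was 0.02, against 0.07 in 1699 other probe sets with a mean of at least 1000, where 25.1% of probe sets had a larger absolute difference than Rps3. At a mean log2 signal of at least 12 the medians were 0.03 in 31 genes and 0.05 in 241 other probe sets, of which 10.4% exceeded Rps3. The family was brighter in both comparisons, with median signals of 7287 against 1848 in the first and 8056 against 5471 in the second. The part of brightness in the smaller differences was not tested. The 19 bright genes of the large subunit had a median of 0.01, and the 18 of the small subunit a median of 0.03. Same-numbered samples resembled each other, and with the replicate number as a block in the fit the 95% intervals of bright genes reached no lower than −0.33 (Rpsa) and no higher than 0.38 (Rps3). Without the block the widest interval was that of Rpl19, from −0.91 to 1.01. Differences smaller than these bounds could go undetected with 3 mice per genotype.

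**Figure D2:**
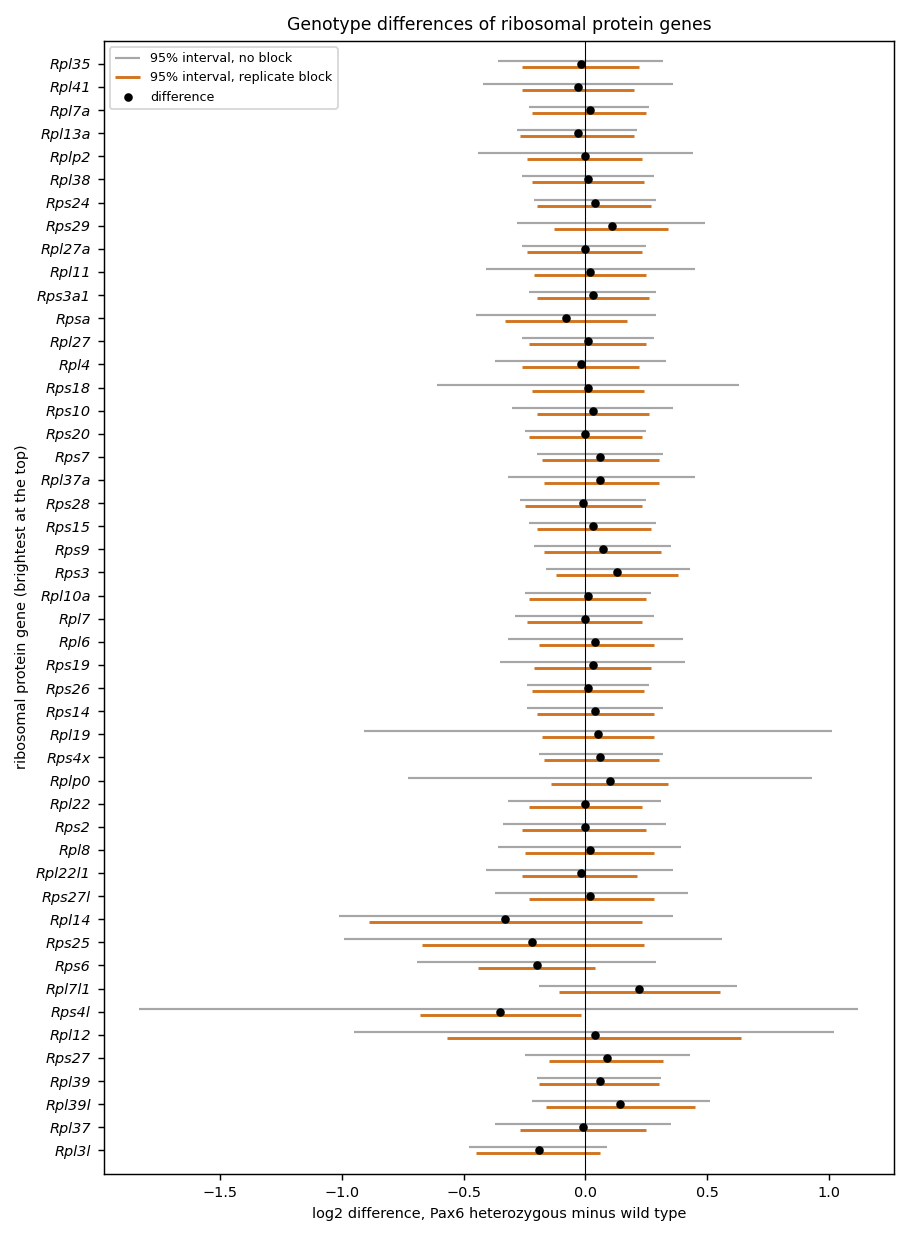
Log2 difference, Pax6 heterozygous minus wild type, of the 48 ribosomal protein genes (black points, brightest at the top) with 95% intervals of limma without (grey) and with (orange) the replicate number as a block, n = 3 mice each. The 37 upper genes lie between −0.08 and 0.13, and the intervals of Rpl19, Rplp0 and Rps18 shorten most with the block among these.

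The most intense probe sets of the family had similar values in both genotypes. These signals lie near the upper end of the arrays, whose highest signals were 16153 to 17785. Any narrowing of differences near that end was not tested. Rpl35, which lies by the exit of the peptide tunnel, had signals of 13946, 13952 and 12199 in wild type and 14417, 14021 and 11354 in heterozygotes. Rpl41, the smallest and most basic of these proteins, had 13548, 14397 and 10948 against 13308, 13941 and 10868. Rpl7a, a large subunit protein whose introns encode small nucleolar RNAs, had 11438, 11337 and 11610 against 11227, 11684 and 11882. In all 3 genes the groups overlapped, and the log2 differences were −0.02, −0.03 and 0.02 (SE 0.14, 0.16 and 0.10). Rpl13a, a large subunit protein that also silences translation of certain inflammatory mRNAs, had 10388, 10845 and 10782 against 10203, 10586 and 10489 (difference −0.03 ± 0.10 SE, adjusted p = 1.00).

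The stalk of the large subunit recruits translation factors and is built on Rplp0 with the acidic P proteins. Rplp0 had 3035, 5772 and 2904 in wild type and 3369, 5788 and 3224 in heterozygotes, and its partner Rplp2 had 9754, 12306 and 9077 against 10046, 12359 and 8765. In both genes replicate 2 was the highest in each genotype and the groups overlapped. The differences were 0.10 ± 0.34 for Rplp0 and 0.00 ± 0.18 for Rplp2 (SE, adjusted p = 1.00 for each with limma). Rplp1 was not measured on a probe set of its own. Rpsa, a small subunit protein also known as a laminin receptor, had 8972, 9901 and 8262 against 9155, 9437 and 7168, and its lowest value was that of heterozygous replicate 3.

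The 5 genes with the smallest unadjusted p on the lower side were Rpl3l, Rpl14, Rps6, Rps25 and Rps4l, none of them among the 37 bright genes. Rpl3l, a paralog of Rpl3 known from heart and skeletal muscle, had 9.79, 9.97 and 10.1 in wild type and 8.0, 9.70 and 8.45 in heterozygotes. It was the only gene of the 48 whose 3 values lay wholly below those of wild type, where 3.53% of all probe sets did so, and 0 genes lay wholly above (2.65% of all probe sets). Its difference was −0.19 ± 0.12 (SE, limma adjusted p = 1.00). These signals are at or under the level of olfactory receptors, and Rpl3l is on the study's list of changed genes, which was chosen on these samples.

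Rpl14, a large subunit protein, had 467, 790.1 and 719 in wild type and 503, 385 and 693 in heterozygotes, so the pairs differed by 0.11, −1.04 and −0.05. Its difference of −0.33 ± 0.28 (SE) became −0.12 without heterozygous replicate 2. Rps25, which some viral mRNAs need to recruit the ribosome, had 619, 342 and 712 against 381, 407 and 622, with pairs on both sides of 0. Rps6, the substrate of the S6 kinases, had 332, 253 and 342 against 309, 209 and 293, and was lower in the heterozygote in each of the 3 pairs (difference −0.20 ± 0.20 SE, limma adjusted p = 1.00, and 0.628 with the replicate block). The groups overlapped in all 3 genes. Rps4l, a relative of Rps4x, had 37.5, 131 and 39.5 against 27.4, 88.0 and 38.6. With the replicate block it was the only gene of the family with an unadjusted p under 0.05 (difference −0.35, 95% interval −0.68 to −0.02, limma adjusted p = 0.530), where 4.59% of all probe sets were lower and 4.43% higher at that level. After adjustment the fit with the block called 0 of the 48 genes and 0.00884% of all probe sets.

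On the higher side the smallest p belonged to Rpl7l1, a relative of Rpl7, with 142, 161 and 136 in wild type and 136, 184 and 194 in heterozygotes (difference 0.22 ± 0.17 SE, limma adjusted p = 1.00). A second Rpl7l1 probe set of similar brightness had 164, 139 and 156 against 145, 155 and 127, with a difference of −0.11 ± 0.13 on the other side of 0. Rps3, which lines the channel where mRNA enters, had 6587, 7039 and 5762 against 6986, 7325 and 6865 (0.13 ± 0.12 SE). Each pair of Rps3 was higher in the heterozygote, whereas the groups overlapped. Rps29, a zinc-binding protein of the small subunit, had 10133, 8647 and 7879 against 11169, 9093 and 8497, which is 0.11 ± 0.16 and again higher in each pair. The values of Rps9, a small subunit protein near the decoding center, were 6611, 7300 and 6395 against 6696, 7466 and 7191. Rpl39l, a paralog of Rpl39 best known from testis, read 9.68, 11.3 and 13.8 against 12.6, 12.6 and 12.9, near background.

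None of the paralogs was called between genotypes, and the difference between a paralog and its partner was not tested. Rpl22 had 3592, 3430 and 3038 in wild type and 3568, 3482 and 2995 in heterozygotes. Rpl22l1, its paralog, had 2561, 2111 and 2779 against 2636, 2097 and 2582, and was lowest in replicate 2 of both genotypes. Rps27l, a target of p53, had 1486, 1662 and 1403 against 1574, 1818 and 1275 (difference 0.02 ± 0.16 SE), and its partner Rps27 was dim, with 17.5, 20.9 and 18.4 against 18.2, 23.0 and 19.2. Rps4x, the X-linked standard protein, had 4984, 5122 and 5211 against 5015, 5534 and 5474, and Rpl7 had 6130, 6996 and 6814 against 6148, 6864 and 6876. Rpl39 and Rpl37 were near background, with ranges over the 6 samples of 14.4 to 16.1 and 9.94 to 13.3. Levels of a gene and its paralog were not compared, since their probes differ. A ribosomal protein outside the symbol rule, Fau, had a difference of 0.01 ± 0.11 (SE).

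Groups within the family gave 0 calls in each direction with limma. Of 17 genes mutated in Diamond-Blackfan anemia, a failure of red cell production, 10 were measured, with a median of 0.03 and a range from −0.01 to 0.11 (Rps29). Of 6 genes whose proteins bind Mdm2 when ribosome assembly stalls, 4 were measured, and their differences were 0.02 to 0.13 (Rps3). Of 6 genes with developmental mouse mutants 5 were measured, with differences of 0.00 to 0.06, the last being Rps7, at 7321, 7952 and 7862 against 7798, 7861 and 8493. Genes of other steps of translation did not pass the test either, in any list. The medians were −0.03 over 24 initiation factors, −0.02 over 10 genes of elongation and related mRNAs with a pyrimidine start, 0.02 over 35 ribosome assembly genes, and −0.04 over 14 genes that control ribosome production. Among them Eif2s3x, a subunit of the factor that brings the initiator tRNA, had 1266, 1085 and 1144 against 917, 1084 and 929.7, and Mtor, the kinase that senses nutrients, had 207, 296 and 227 against 151, 213 and 203. The differences were −0.25 ± 0.13 and −0.36 ± 0.20 (SE, adjusted p = 1.00 for each). The values of Eif2s3x did not overlap, by a margin of 1084 against 1085, as in 3.53% of all probe sets on the lower side, and those of Mtor overlapped. The other Eif2s3x probe sets also had differences below 0 (−0.29 ± 0.17 and −0.39 ± 0.22 SE), but their groups overlapped. In Eif4ebp2, a repressor of cap-dependent translation, signals were 72.9, 67.4 and 75.4 in wild type and 86.9, 94.2 and 81.2 in heterozygotes (0.28 ± 0.12 SE, limma adjusted p = 1.00), and the groups did not overlap, as in 2.65% of all probe sets on the higher side. A second Eif4ebp2 probe set of similar brightness had 75.8, 69.6 and 84.6 against 61.5, 84.6 and 67.1 (−0.12 ± 0.16), and the mean over its probe sets gave −0.01.

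In contrast to the genotype, the replicate number accounted for much of the spread of these genes. Its share of the sum of squares over the 6 samples had a median of 91.1% in the 37 bright genes, against 1.06% for the genotype. In all 1840 probe sets with a mean of at least 1000 the shares were 87.1% and 3.98%. The replicate number has more levels than the genotype and so takes a larger share even without a pattern, and the shares were not adjusted for this. What same-numbered samples have in common is not stated. With limma's F test of the replicate number, 4 of 48 genes (8.33%) passed an adjusted p of 0.05, where 19.4% of all probe sets did, and 3 of the 37 bright genes (8.11%) passed, where 22.8% of bright probe sets did. The family is brighter than most of these, and at a mean log2 signal of at least 12 the share was 6.45% of 31 genes and 9.13% of 241 other probe sets. The order of these shares depended on the fit: with an intensity trend and robust prior 22 of 48 genes (45.8%) and 27.8% of all probe sets passed, and with a pseudocount of 16 it was 12 genes (25%) and 20.8%, both chosen after seeing the data. The share of the family was not tested against that of the arrays. Of 74 mitochondrial ribosomal protein genes 37 (50%) passed.

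The bright genes that passed were Rpl19, Rplp0 and Rps18. Rpl19, a large subunit protein, had 4997, 8933 and 4006 in wild type and 5164, 9302 and 4127 in heterozygotes. Its replicate means spanned 1.16 on the log2 scale, or 2.24-fold (F test, adjusted p = 0.00854), while the pairs differed between genotypes by 0.05, 0.06 and 0.04. In Rplp0 the span was 0.92, or 1.89-fold (adjusted p = 0.0115). Rps18, in the head of the small subunit, had 8370, 10991 and 6706 against 8503, 11202 and 6593, a span of 0.74 or 1.67-fold (adjusted p = 0.0222). In these 3 genes replicate 2 was the highest and replicate 3 the lowest of both genotypes. The dim gene Rps4l also passed (span 1.74, adjusted p = 0.00786).

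Most other bright genes varied less. The span was under 0.2 in 18 of the 37 and at least 0.4 in 5, the further ones being Rplp2 (0.47) and Rpl11 (0.43), a protein that binds Mdm2. In 17 genes all 6 values lay within 0.25 on the log2 scale. Rpl7a had a span of 0.05, Rpl13a of 0.06 and Rps26, which contacts mRNA upstream of the start codon, of 0.08. On the dimmer Rpl13a probe sets the span was larger, at 0.43, 0.17 and 0.60. The values of Rps26 were 6384, 6214 and 6141 in wild type and 6530, 6245 and 6103 in heterozygotes, and its SD over the 6 samples was 0.0367 on the log2 scale, against 0.539 for Rpl19.

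**Figure D3:**
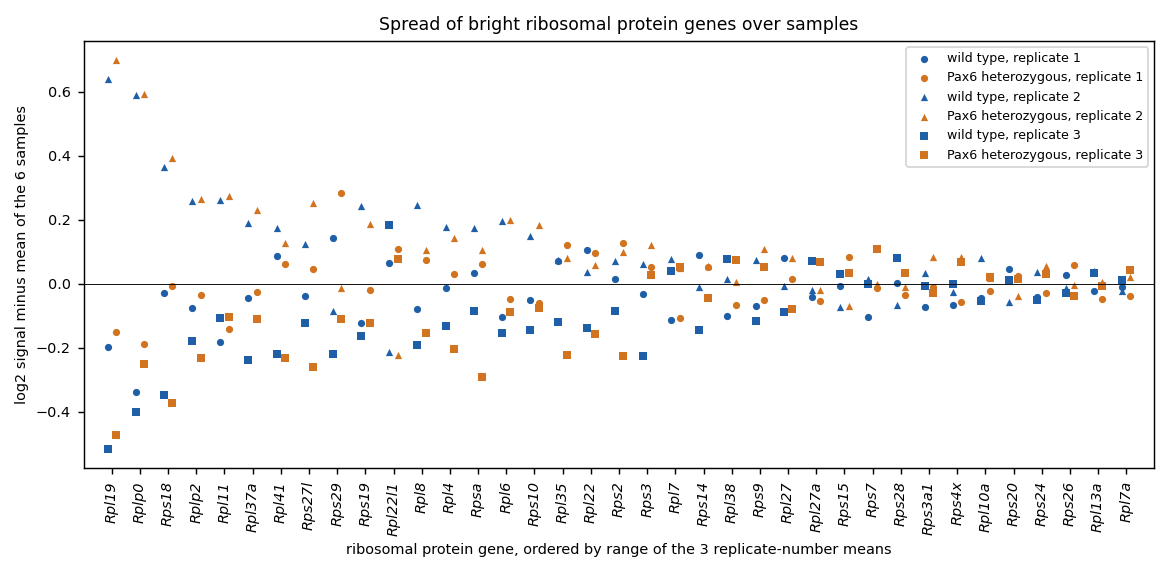
Log2 signal of the 37 bright ribosomal protein genes minus the mean of the 6 samples, in 3 wild type (blue) and 3 Pax6 heterozygous (orange) samples, with a shape for each replicate number and genes ordered by the range of the replicate means. Triangles (replicate 2) of both colors stand high in Rpl19, Rplp0 and Rps18, and all points lie near 0 in Rps26, Rpl13a and Rpl7a.

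Replicate 2 was the highest of both genotypes in 22 of the 48 genes (45.8%) and in 19 of the 37 bright ones (51.4%), where this held for 21.1% of all probe sets and 24.3% of bright ones. These shares are counts with no test. In the mitochondrial ribosomal protein genes it was 45 of 74 (60.8%). Bright genes of the large subunit (10 of 19) and of the small subunit (9 of 18) are both included. Replicate 1 was the highest of both genotypes in 4 bright genes, among them Rps29, and replicate 3 in another 4, among them Rpl38 and Rpl27a. Of all 1840 bright probe sets, replicate 1 was the highest in 268, replicate 2 in 448 and replicate 3 in 702.

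The replicate pattern did not always hold between probe sets of the same gene. Of 15 genes with several bright probe sets, 3 had probe sets whose excess of replicate 2 over the mean of the others differed by more than 0.3 on the log2 scale. In Rpl13a the excess ran from −0.13 to 0.33, in Rpl35 from 0.11 to 0.53 and in Rpl41 from 0.23 to 0.59. The dimmer Rpl41 probe set had 5528, 7784 and 4904 in wild type and 5489, 7725 and 4686 in heterozygotes, whereas the brightest had its values within a narrower range. In Rps18 all 3 bright probe sets had the excess, from 0.45 to 0.61. The genotype difference was small in all of them, and over all 65 bright single-gene probe sets of the family no absolute difference was above 0.13.

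Several of these genes serve as references for quantitative PCR in other work. Of 7 such genes 6 were measured, and replicate number was called in 3 of them (Rplp0, Rpl19 and Rps18), whereas the genotype was called in 0. Replicate number was called in 19.4% of all probe sets and 22.8% of bright ones, and the genotype in 0%. These 6 genes were not tested against other genes. Rpl13a, Rpl4 and Rps29, with spans of 0.06, 0.33 and 0.38, did not pass in this fit. On its dimmer probe sets the span of Rpl13a was 0.17 to 0.60. With an intensity trend and robust prior Rpl4 (limma adjusted p = 0.00199) and Rps29 (limma adjusted p = 0.000525) passed as well, which makes 5 of the 6. In that fit 27.8% of all probe sets passed.

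**Figure D4:**
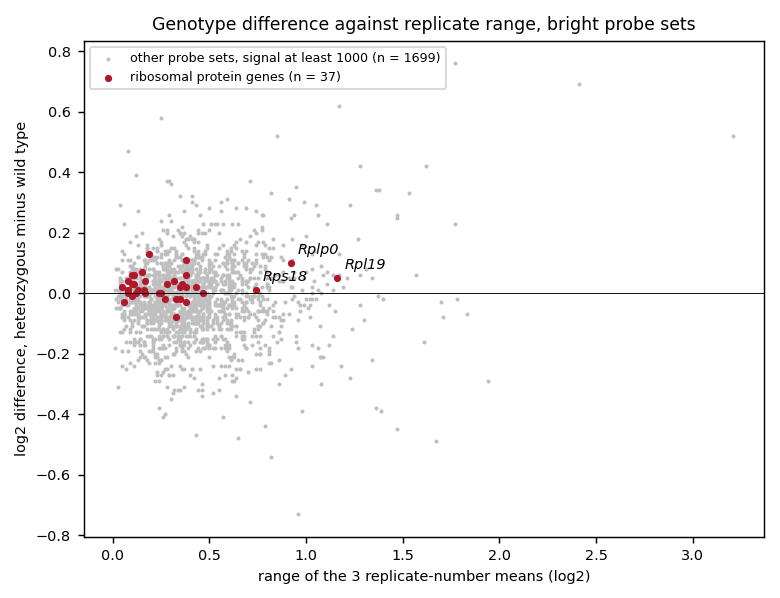
Log2 difference between genotypes against the range of the 3 replicate-number means (log2), for 37 bright ribosomal protein genes (red) and 1699 other probe sets with a mean signal of at least 1000 (grey). The red points stay between −0.08 and 0.13 on the vertical axis, while Rps18, Rplp0 and Rpl19 reach spans of 0.74, 0.92 and 1.16 on the horizontal axis.

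Markers of other cells varied between the same samples. The summed signal of 11 genes of dividing cells was 1411 to 2875 in wild type and 2102 to 3722 in heterozygotes, and all 11 had a difference above 0 (median 0.77), 1 of them with an unadjusted p under 0.05 (0.977% of all probe sets) and 8 of them with the replicate block (4.43%). The pairs of dividing cell genes had median differences of 0.52, 0.86 and 0.40. For 10 retina and neuron genes the sums were 887 to 940.1 and 1150 to 1796, which did not overlap, and the brightest genes weigh most in a sum. The list had been drawn up with Neurod1 and Stmn2, which the paper found raised in heterozygotes on these same samples. Differences of the 10 genes ran from −0.50 to 0.94, with 9 above 0 and 1 below. Of these genes 3 were higher and 1 lower at an unadjusted p under 0.05 (0.977% and 1.01% of all probe sets). With the replicate block it was 4 and 1 (4.43% and 4.59%). For 9 endothelium genes the sums were 671 to 1107 and 878 to 1781, with 1 gene higher at that level and 4 with the block. For 10 macrophage genes the sums were 408 to 1431 and 261 to 1580, for 4 red blood cell genes 48.9 to 58.5 and 41.4 to 64.2, and for 11 lens markers 95517 to 111593 and 90900 to 108906. Replicate 2 of both genotypes was highest in 0 of the dividing cell and endothelium genes and in 7 of the 11 lens markers (63.6%). The part of these cells in the values of the ribosomal protein genes was not tested.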

How the data were processed

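RNA of lenses from 3 wild type and 3 Pax6 heterozygous newborn mice was amplified, labeled with biotin and hybridized to Affymetrix arrays. The deposited values are signal intensities on a linear scale that the authors made by robust multichip average (RMA), whose version is not given in the sources used here. RMA normalizes arrays to a common distribution, so that a change of the whole RNA is not seen, and pulls ratios of dim probe sets toward 1. There is no count or depth, and the number of arrays limits the precision. The array that the methods name holds more probe sets than the deposited table.

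Intensities were taken to log2 with no further scaling. Of 22690 probe sets 64 controls were left out and 22626 tested. The array annotation gave a single gene for 20380, several for 691 and none for 1555, and 20351 were matched to RefSeq by Entrez number. Linear models of the genotype were fitted to each probe set in limma 3.58.1 under R 4.3.3 (functions lmFit and eBayes), followed by Benjamini-Hochberg adjustment over all probe sets and a threshold of 0.05. Means over samples are geometric, and errors are standard errors of limma. Figures were drawn with matplotlib 3.10.9. The fits were tested on simulated data.

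Same-numbered samples deviated together from their genotype means, with correlations of 0.645, 0.734 and 0.604 over all probe sets, whereas samples of different numbers had −0.0751 to −0.496. The numbers were therefore taken to pair the samples, from the data alone. The reported values come from the fit without this block. The F test of the replicate number, in the fit with the block, was added after the data were seen.

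The genes and lists were chosen with earlier results of these data known. Named genes were the 5 with the smallest p in each direction, the 5 brightest and 5 dimmest, stalk proteins and Rpsa, Fau, paralogs with their partners, the smallest p of each list (for lists of other translation genes the smallest 2, of which a few are given), and the 3 with the largest and smallest SD. Rps18, Rpl11, Rpl4, Rpl38 and Rpl27a were named after their values were seen.

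Alternatives were the replicate block, array weights, quantile normalization, a filter at a median of 50 or 100, centring on the median, a robust prior with intensity trend, the average of a gene's probe sets, fitting 1 row per gene, no probe sets ending in _x_at or _s_at, a pseudocount of 16, the methods' t-test and omission of each sample. The 102 probe sets that pair a ribosomal protein symbol with other genes were kept apart.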

Additional observations from a re-analysis of the deposited data

How the results depend on the processing

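No gene of the family passed the adjusted threshold for genotype under any alternative. With the replicate block 1 gene (Rps4l) was lower at an unadjusted p under 0.05. Among the 28 named genes of the family, the smallest limma adjusted p over the alternatives chosen at the start was 0.530. The replicate block changed no other call of a named gene of the family. With the block together with a trend and a robust prior, a setting chosen after seeing the data, Rps29 (adjusted p = 0.387) and Rps3 (adjusted p = 0.405) had an unadjusted p under 0.05 in limma, which is 4.17% of the family against 4.52% of all probe sets on the higher side, and 83 probe sets but 0 genes of the family passed after adjustment. The count of genes wholly below wild type was 0 with quantile normalization and with a median signal of at least 50 or 100, the last 2 because Rpl3l was left out. Median centring put the median of the family at −0.01, where that of all probe sets became −0.04. Leaving out each sample gave a median from −0.03 to 0.06, 0 to 7 genes wholly above, 1 to 3 wholly below, and 0 to 1 at an unadjusted p under 0.05 on the higher side. With a sample left out, 5.36% to 6.89% of all probe sets lay wholly above, 7.01% to 9.59% wholly below and 0.685% to 1.47% had an unadjusted p under 0.05 on the higher side. The 7 (14.6%) came without wild type replicate 2, where 6.21% of all probe sets lay wholly above, and the 3 (6.25%) without wild type replicate 1, where 7.54% lay wholly below.

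The count of 4 genes for replicate number depended on the setting, with the replicate block in each and chosen after seeing the data: 7 with a median signal of at least 50, 11 with at least 100, 22 with a trend and robust prior and 12 with a pseudocount of 16, where 50.2%, 55.8%, 27.8% and 20.8% of all probe sets passed. The share of the family was 17.1%, 26.8%, 45.8% and 25%, so it lay below that of all probe sets with a filter and above it with the trend or the pseudocount. The count was 2 to 4 when a sample was left out, and 2 without replicate 2 of wild type or of the heterozygote. The share of all probe sets that passed in those fits was not counted, so a general loss of calls cannot be told apart.

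Of 705 values of named genes under alternatives, 651 kept their direction and 54 did not, 41 of the latter when a sample was left out. Quantile normalization gave 0.00 for Rpl22 and Rpl35 on the other side of 0. Median centring gave −0.01 for Fau, −0.01 for Rpl7a, −0.02 for Rps26 and 0.00 for Rps27l. Array weights gave 0.01 for Rpl7. The mean of all probe sets gave −0.01 for Eif4ebp2 and 0.03 for Rpl13a and Rpl41. Without _x_at and _s_at probe sets Rpl13a was 0.05, Rpl41 0.10 and Rps9 −0.08, where the probe sets left for Rpl41 and Rps9 had means under 50. Leaving out each sample gave ranges of −0.33 to 0.05 for Eef2, −0.03 to 0.04 for Fau, −0.29 to 0.38 for Rpl19, −0.07 to 0.08 for Rpl22, −0.14 to 0.08 for Rpl22l1, −0.08 to 0.09 for Rpl35, −0.14 to 0.07 for Rpl37, −0.14 to 0.08 for Rpl41, −0.06 to 0.05 for Rpl7, −0.17 to 0.42 for Rplp0, −0.13 to 0.13 for Rplp2, −0.02 to 0.03 for Rps26, −0.01 to 0.16 for Rps27, −0.10 to 0.16 for Rps27l, −0.01 to 0.21 for Rps29, −0.83 to 0.24 for Rps4l and −0.16 to 0.04 for Rpsa. The fits with a sample left out had no block, so the replicate number of the omitted sample remained in a single genotype. The cause of the reversals was not tested.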

Other observations

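The 102 probe sets that pair a ribosomal protein symbol with other genes or pseudogenes carried 44 ribosomal protein symbols, 14 of which also stood on a probe set of their own. Their median log2 difference between genotypes was 0.01, with a range from −0.33 to 0.25, and 0 passed the adjusted threshold in limma. Of these probe sets 13 (12.7%) passed the test of the replicate number, where 19.4% of all and 22.8% of bright probe sets did. Replicate 2 was the highest of both genotypes in 26 (25.5%) and replicate 3 in 40 (39.2%). Among all 22626 probe sets these counts were 4779 and 4461, and among the 1840 bright ones 448 and 702. Of the 102 probe sets 76 were bright, and their counts were not tested against the bright probe sets. No gene is named from them, since the signal cannot be assigned.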
